A study of Mus musculus with 8 samples.

Results

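The 40 genes described here encode proteins of DNA replication and cell division. They were taken from a list of mouse symbols, each of which matched 1 Ensembl gene identifier, out of 55487 gene identifiers in the tables. The list was divided by known function into 17 S phase genes, which act in the G1 to S transition and in copying DNA, and 23 mitosis genes, which act from G2 to the end of division. Transcripts were measured by bulk RNA sequencing of the epididymal fat pad (eWAT, a visceral white fat depot) in 8 male C57BL/6 mice made obese on a high-fat diet. All 8 were Slc16a1 flox/flox. The 4 AKO mice also had the AP2-cre transgene, which the 4 WT mice lacked, and are labelled Slc16a1 -/-. The product of Slc16a1 is MCT1, which moves lactate across the plasma membrane. AP2-cre uses the promoter of Fabp4, a gene of fat cells that is also active in macrophages, and only the AKO mice carried Cre, so an effect of Cre and one of the deletion cannot be told apart. The labels state no ages. WT mice are numbered 2, 3, 4 and 5 and AKO mice 3, 8, 9 and 11, and values below follow that order. Values are TPM (transcript abundance scaled for length and to a fixed library total), summed over the rows of a gene.

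A dividing cell first raises E2F activity and cyclin E, licenses its replication origins by loading the MCM helicase, and copies its DNA with the help of PCNA and a supply of nucleotides. It then builds up cyclin A, cyclin B and Cdk1, and separates its chromosomes on a spindle under the control of the Aurora and Polo kinases and the anaphase-promoting complex. Many S phase genes are known targets of E2F factors, while many mitosis genes are known for promoters with CCAAT boxes and a cell cycle homology region (CHR), read by NF-Y and by the DREAM and MuvB complexes. Mature adipocytes do not divide. In obese fat, dividing cells are known among macrophages, adipocyte progenitors and endothelial cells.

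Between 13968 and 14884 genes per library reached 1 TPM, and mitochondrial genes held 6.69% to 8.99% of TPM. TPM keeps no read depth, so no counting error can be given. The adipocyte markers Adipoq and Lep were abundant in every mouse (1864 to 5170.5 TPM and 2134 to 3223 TPM), as the tissue label implies. Slc16a1 itself was at 15.7 to 28.5 TPM in WT and 21.5 to 27.05 TPM in AKO, so its summed level does not check the genotype labels. AKO 11 stood apart by sperm-cell transcripts: Tnp1 and Prm1, which package sperm DNA, together held 745.5 TPM there and at most 30.04 TPM in any other mouse. Results are therefore also given without AKO 11. In bulk tissue, fewer dividing cells and less RNA per cell cannot be told apart.

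Proliferation genes varied several-fold between mice of the same genotype, and the mice fell in nearly the same order for most of them. WT 3 was highest for 32 of the 40 genes (80% against 16.9% of all 14172 genes tested), and WT 4 was lowest for 31 (77.5% against 23.3%). Within WT, both WT 3 and WT 5 were above both WT 2 and WT 4 for 39 genes (97.5% against 27.5%). Within AKO, AKO 3 and AKO 9 were both above AKO 8 and AKO 11 for 32 genes (80% against 33.2%). These patterns were chosen with earlier results of these data known, so an excess over all genes is partly built in. The 40 genes vary together, so the counts restate the same order of mice and are not separate observations. No gene passed the test between genotypes (limma, FDR below 0.05 over all genes tested, smallest FDR 0.831), where 0.0282% of all genes passed.

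Mki67, whose protein Ki-67 coats mitotic chromosomes and is the usual marker of dividing cells, was at 4.42, 16.6, 3.72 and 11.5 TPM in the WT mice and 12.2, 7.06, 13.1 and 6.65 TPM in the AKO mice. Its group means were 9.04 ± 6.11 TPM in WT and 9.76 ± 3.38 TPM in AKO (SD, n = 4 each). WT 2 and WT 4 lay below every AKO mouse and WT 3 lay above every AKO mouse, so the AKO values sat inside the WT range. The log2 difference (AKO minus WT, here and below in units of log2(TPM + 1)) was 0.26 (95% interval −0.74 to 1.26, FDR 0.915, limma). An exact two-sided permutation test over the 70 arrangements of 4 and 4 mice gave p = 0.571 for Mki67, where the smallest possible is 0.0286. Top2a, the topoisomerase that untangles replicated chromosomes, was at 7.10, 22.1, 5.82 and 16.6 TPM in the WT mice and 20.1, 10.3, 17.7 and 10.1 TPM in the AKO mice, with a log2 difference of 0.28 (SE 0.42, FDR 0.908). Both genes put the 4 WT mice in the same order.

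**Figure D1:**
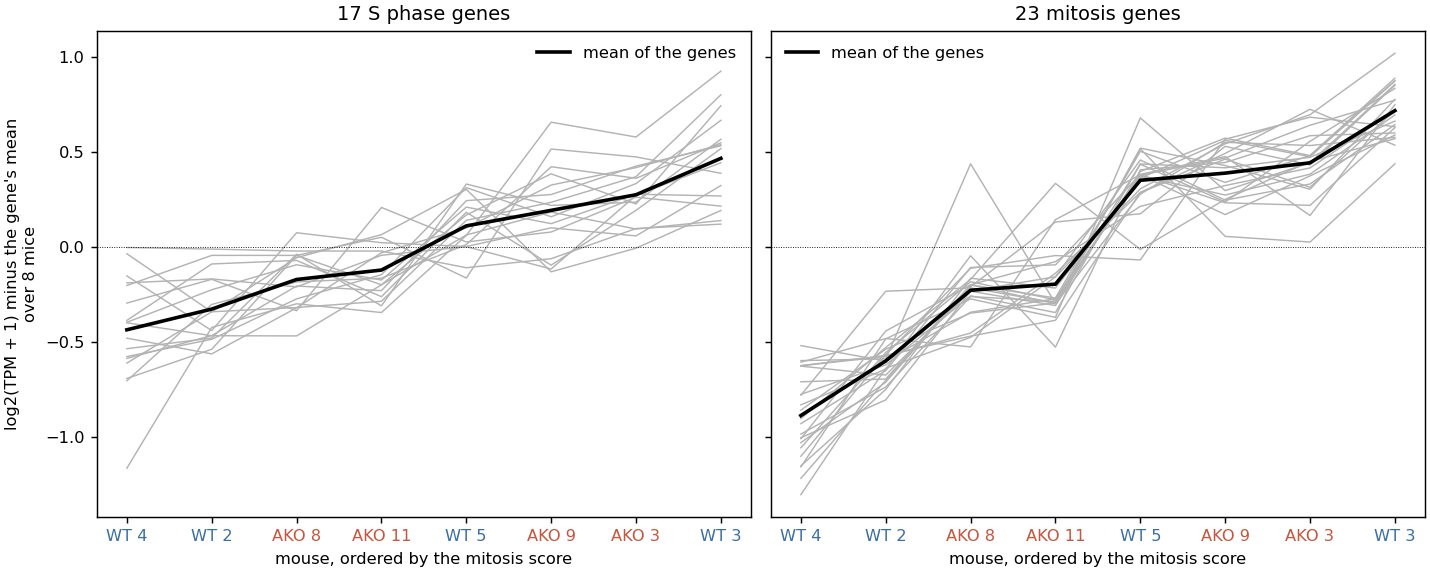
Each grey line is 1 gene, as log2(TPM + 1) minus its mean over 8 mice (y axis), across the mice ordered by the mitosis score (x axis, WT labels blue and AKO labels red), with the 17 S phase genes on the left and the 23 mitosis genes on the right. The black line is the mean of the genes, and it climbs from WT 4 to WT 3 in both panels, more steeply for mitosis.

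The promoters of these genes are shown because the members move together and because the motifs known for the 2 classes can be looked for in them. RefSeq promoter windows (GRCm38.p6, 250 bases before to 50 after the start) were at hand for 32 of the 40 genes, as 34 windows. Those of Pcna and Mcm7, the most abundant S phase genes, and of Ube2c and Cdk1, the most abundant mitosis genes, are printed 5′ to 3′ on the gene's strand. Capitals mark matches, on either strand, to CCAAT (the NF-Y box), TTTGAA (the CHR element) and the E2F type motifs TTTGGCGC, TTTCCCGC and TTCGCGCC.
Pcna: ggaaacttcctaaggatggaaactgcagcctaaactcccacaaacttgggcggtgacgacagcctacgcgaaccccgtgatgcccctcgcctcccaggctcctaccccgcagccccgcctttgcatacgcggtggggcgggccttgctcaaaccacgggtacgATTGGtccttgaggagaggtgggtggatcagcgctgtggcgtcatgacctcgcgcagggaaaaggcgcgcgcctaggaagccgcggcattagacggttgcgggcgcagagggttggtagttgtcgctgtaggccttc
Mcm7: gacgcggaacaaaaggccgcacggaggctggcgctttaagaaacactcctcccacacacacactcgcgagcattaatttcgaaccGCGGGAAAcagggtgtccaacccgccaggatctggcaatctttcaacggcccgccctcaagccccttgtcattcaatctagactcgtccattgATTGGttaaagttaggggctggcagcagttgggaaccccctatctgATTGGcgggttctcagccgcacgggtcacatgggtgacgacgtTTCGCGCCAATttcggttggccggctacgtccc
Ube2c: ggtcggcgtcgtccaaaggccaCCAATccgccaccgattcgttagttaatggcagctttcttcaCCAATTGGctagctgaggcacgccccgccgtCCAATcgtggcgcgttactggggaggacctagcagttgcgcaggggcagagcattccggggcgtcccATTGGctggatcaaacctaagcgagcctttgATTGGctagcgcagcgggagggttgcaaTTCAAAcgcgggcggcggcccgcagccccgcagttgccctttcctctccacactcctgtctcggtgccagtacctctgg
Cdk1: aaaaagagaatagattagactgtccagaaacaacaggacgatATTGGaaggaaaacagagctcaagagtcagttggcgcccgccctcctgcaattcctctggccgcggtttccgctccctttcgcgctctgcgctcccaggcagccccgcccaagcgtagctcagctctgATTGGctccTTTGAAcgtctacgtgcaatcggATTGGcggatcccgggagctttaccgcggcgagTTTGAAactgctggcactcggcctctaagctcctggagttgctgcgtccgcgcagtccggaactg

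The windows lie at chr2:132253131-132253430 on the minus strand for Pcna, chr5:138171834-138172133 on the minus strand for Mcm7 (the first of its 2 windows), chr2:164769679-164769978 on the plus strand for Ube2c and chr10:69352863-69353162 on the minus strand for Cdk1, each spanning the start of the gene's transcript. Pcna holds 1 CCAAT box. The printed Mcm7 window holds 3 CCAAT boxes and 2 E2F type matches, of which TTCGCGCC shares letters with a CCAAT box. The other Mcm7 window, not printed, holds 1 CCAAT box and 0 E2F type matches. Ube2c holds 6 CCAAT boxes, counted on either strand, and 1 CHR element, and Cdk1 holds 3 CCAAT boxes and 2 CHR elements. In Ube2c, 2 of the boxes, on opposite strands, share letters in the stretch CCAATTGG. Over the 19 mitosis windows, 17 (89.5%) held a CCAAT box, 14 (73.7%) a CHR element and 0 an E2F type match. Over the 15 S phase windows the counts were 10 (66.7%), 2 (13.3%) and 6 (40%). Over all 32851 windows of the table the shares were 37.4%, 17.9% and 2.05%. GGGCGG, the GC box, was in 84.2% of mitosis, 80% of S phase and 35.7% of all windows. A match is a run of letters and not a shown binding site, and 2 Prc1 windows overlap.

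The S phase genes were described first by their role at the G1 to S transition. E2f1, a transcription factor that switches on replication genes, was at 12.1, 13.8, 10.7 and 13.1 TPM in the WT mice and 13.4, 12.1, 14.3 and 10.7 TPM in the AKO mice, with a log2 difference of 0.02 (SE 0.11, FDR 0.975). Ccne1, which encodes cyclin E1, the partner of Cdk2 at S phase entry, was at 5.37, 7.32, 4.84 and 6.30 TPM in the WT mice and 7.60, 4.68, 6.57 and 7.28 TPM in the AKO mice. Both moved little between mice compared with the mitosis genes. Their within-group SDs on the log2 scale were 0.16 and 0.25. Ccne2, the second cyclin E, ranged from 3.74 to 6.46 TPM.

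Of the 10 genes of origin licensing and firing, 6 had a log2 difference above 0 and 4 below, with a median of 0.04. Gmnn encodes geminin, which blocks repeated licensing by binding Cdt1. Gmnn was at 10.2, 20.3, 9.05 and 13.5 TPM in the WT mice and 21.6, 14.8, 22.2 and 15.8 TPM in the AKO mice, with means of 13.2 ± 5.04 TPM in WT and 18.6 ± 3.85 TPM in AKO (SD, n = 4 each). It had the smallest unadjusted p of the 40 genes (0.0707) and a log2 difference of 0.50 (SE 0.24, FDR 0.831). WT 3 lay within the AKO range and the other WT mice lay below it. The exact permutation test gave p = 0.114 for Gmnn. Its partner Cdt1, the licensing factor, ranged from 3.18 to 16.8 TPM and had the widest within-group SD of the S phase genes (0.73).

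The MCM subunits form the ring-shaped helicase that opens the DNA. Mcm6 was at 15.6, 35.7, 12.8 and 22.2 TPM in the WT mice and 26.2, 15.9, 23.8 and 16.3 TPM in the AKO mice, with a log2 difference of 0.0029 (SE 0.30). Mcm2, Mcm3 and Mcm5 also had WT 3 highest, at 2.41, 2.30 and 2.15 times WT 4. Mcm4 did not. The row that holds 98.7% of it was at 7.30, 10.9, 6.61 and 10.29 TPM in the WT mice. In the AKO mice that row was at 11.15, 8.39, 9.73 and 7.88 TPM, highest in AKO 3. Mcm7, whose printed promoter holds E2F type and CCAAT matches, varied least of the 40 genes when its rows were summed. It was at 21.3, 23.5, 21.5 and 19.9 TPM in the WT mice and 23.1, 21.2, 20.6 and 21.2 TPM in the AKO mice, a within-group SD of 0.08 against 0.50 for Mcm6. Single rows, chosen after their values were seen, varied more. A row with 32.9% of Mcm7 was at 6.32, 9.68, 5.62 and 8.6 TPM in WT and 8.12, 5.3, 6.65 and 6.32 TPM in AKO. A row with 8.65% ran the other way, at 3.97, 0.35, 3.09 and 0 TPM in WT. In AKO that row was at 0.49, 4.01, 0.5 and 2.47 TPM. The largest row (42.3%) was highest in WT 3 and lowest in WT 5. The Mcm7 locus overlaps Cops6, Ap4m1 and the miRNA genes Mir25, Mir93 and Mir106b in the GENCODE M21 annotation, and whether counting used strand is not stated, so reads of these genes may be mixed. Cdc45, which travels with the helicase, also departed from the order, at 5.71 to 9.50 TPM with WT 5 highest. Cdc6, a loader of the helicase, was low (0.880 to 2.52 TPM).

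At the replication fork, Pcna, the sliding clamp that holds the DNA polymerase, was the most abundant of the 40 genes. It was at 92.3, 167, 69.6 and 115 TPM in the WT mice and 147, 100.3, 153 and 102 TPM in the AKO mice, with means of 111 ± 41.9 TPM in WT and 126 ± 28.5 TPM in AKO (SD, n = 4 each) and a log2 difference of 0.22 (SE 0.27, FDR 0.884). Rrm1, the large subunit of ribonucleotide reductase, was at 10.3, 22.4, 9.88 and 18.9 TPM in the WT mice and 17.6, 14.4, 17.4 and 11.7 TPM in the AKO mice. Its small subunit Rrm2 ranged from 5.14 to 13.6 TPM. Tyms, which makes thymidylate, was at 9.41, 16.7, 11.7 and 13.2 TPM in the WT mice and 13.7, 13.9, 14.2 and 13.4 TPM in the AKO mice. Pcna and Rrm1 kept the order of Mki67 within WT, and Tyms differed in placing WT 2 below WT 4 and in varying little among the AKO mice.

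Over the 17 S phase genes, 12 log2 differences were above 0 and 5 below, with a median of 0.06 (range −0.12 to 0.50) and none at an unadjusted p below 0.05, against 4.75% of all genes.

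Among the mitosis genes, G2 to M control was led by Cdk1, the kinase that drives entry into mitosis, whose printed promoter carries CCAAT boxes and CHR elements. Cdk1 was at 15.2, 36.4, 10.2 and 21.96 TPM in the WT mice and 37.7, 21.3, 34.7 and 22.3 TPM in the AKO mice, with means of 20.9 ± 11.3 TPM in WT and 28.99 ± 8.40 TPM in AKO (SD, n = 4 each) and a log2 difference of 0.55 (SE 0.36, FDR 0.831). This was the largest difference of the 40 genes in this fit, though with a pseudocount of 0.1 Cenpe (0.68) exceeded Cdk1 (0.58) and without WT 4 Gmnn (0.35) exceeded Cdk1 (0.27). WT 3 lay between AKO 9 and AKO 3. Ccnb2, a cyclin B, was at 5.40, 15.8, 3.52 and 11.7 TPM in the WT mice and 12.8, 7.29, 10.1 and 6.76 TPM in the AKO mice. Ccnb1 and Ccna2, which encode the other cyclins of this step, ranged from 2.07 to 11.4 TPM and 3.21 to 14.8 TPM. Foxm1, a transcription factor of late cell cycle genes, ranged from 1.94 to 6.91 TPM. All 5 genes were highest in WT 3 except Cdk1, which was highest in AKO 3, and all were lowest in WT 4.

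The chromosomal passenger complex and mitotic kinases correct chromosome attachment and build the spindle poles. Birc5, which encodes the passenger subunit survivin, was at 8.44, 28.8, 4.95 and 17.2 TPM in the WT mice and 22.8, 9.57, 20.4 and 12.2 TPM in the AKO mice, the widest within-group SD of all 40 genes (0.83). Aurkb, the kinase of that complex, was at 3.66, 10.04, 3.09 and 8.65 TPM in the WT mice and 9.93, 6.05, 8.91 and 4.05 TPM in the AKO mice. Plk1, the Polo kinase, was at 2.12, 8.16, 1.18 and 4.73 TPM in the WT mice and 5.85, 3.39, 6.33 and 4.56 TPM in the AKO mice, with a log2 difference of 0.44 (SE 0.42, FDR 0.856). In all 4 genes of this role, Aurka included, WT 3 was highest and WT 4 lowest.

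At the checkpoint and anaphase, Ube2c, the E2 enzyme of the anaphase-promoting complex, was at 15.6, 39.8, 15.1 and 29.2 TPM in the WT mice and 29.8, 17.1, 33.1 and 21.5 TPM in the AKO mice. Cdc20, which activates that complex, was at 3.37, 10.5, 2.60 and 7.95 TPM in the WT mice and 6.70, 5.37, 8.55 and 5.43 TPM in the AKO mice. The checkpoint kinases Bub1 and Bub1b ranged from 1.11 to 4.38 TPM and 2.96 to 9.24 TPM. At the centromere, Cenpa, the histone variant that marks it, was at 12.8, 27.01, 8.32 and 21.8 TPM in the WT mice and 26.2, 15.4, 26.5 and 14.3 TPM in the AKO mice. Cenpe, a motor that moves chromosomes to the spindle equator, was at 1.23, 3.78, 0.720 and 2.19 TPM in the WT mice and 3.40, 1.86, 2.83 and 3.06 TPM in the AKO mice, with a log2 difference of 0.44 (SE 0.31, FDR 0.831). Cenpf, a large kinetochore protein, was below 1 TPM in 3 mice (0.550 to 2.36 TPM) and was the least like the other mitosis genes. Ube2c, Cdc20 and Cenpa each put WT 3 above all AKO mice and WT 4 below them.

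On the spindle, Tpx2, which activates Aurora A, was at 3.15, 11.8, 2.14 and 7.98 TPM in the WT mice and 8.71, 5.23, 9.31 and 5.01 TPM in the AKO mice. Prc1, which bundles microtubules at the midzone, was at 4.61, 12.97, 3.49 and 10.7 TPM in the WT mice and 9.06, 5.40, 9.97 and 5.64 TPM in the AKO mice. The motors Kif11 and Kif20a ranged from 1.47 to 5.70 TPM and 2.79 to 8.31 TPM, and Nusap1, a microtubule-binding protein, from 2.31 to 7.26 TPM. All 5 were highest in WT 3.

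All 23 mitosis genes had log2 differences above 0 (median 0.18, range 0.02 to 0.55, median SE 0.37), where 53.8% of all genes did. None reached an unadjusted p below 0.05. These 23 signs are not 23 observations, because the genes vary together between mice. Without WT 4, 8 of 23 were above 0 with a median of −0.07, and 5 of the 17 S phase genes were, with a median of −0.04. Without WT 3, 23 and 16 were above 0 (55.5% of all genes were), with medians of 0.48 and 0.25. None of the 40 passed there (smallest FDR 0.332). In that setting 3 and 1 were at an unadjusted p below 0.05 (limma). The share of all genes at that p without WT 3 was not counted, so these counts have no background. Without WT 2 the mitosis median was 0.02, without AKO 3 it was 0.07, without AKO 8 0.28, without AKO 9 0.11 and without WT 5 0.35. Without AKO 11, the mouse with sperm-cell RNA, the medians were 0.30 for mitosis and 0.10 for S phase and none of the 40 passed. For none of the 40 genes did the groups separate, where 1.11% of all genes were above in every AKO mouse and 1.33% below.

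**Figure D2:**
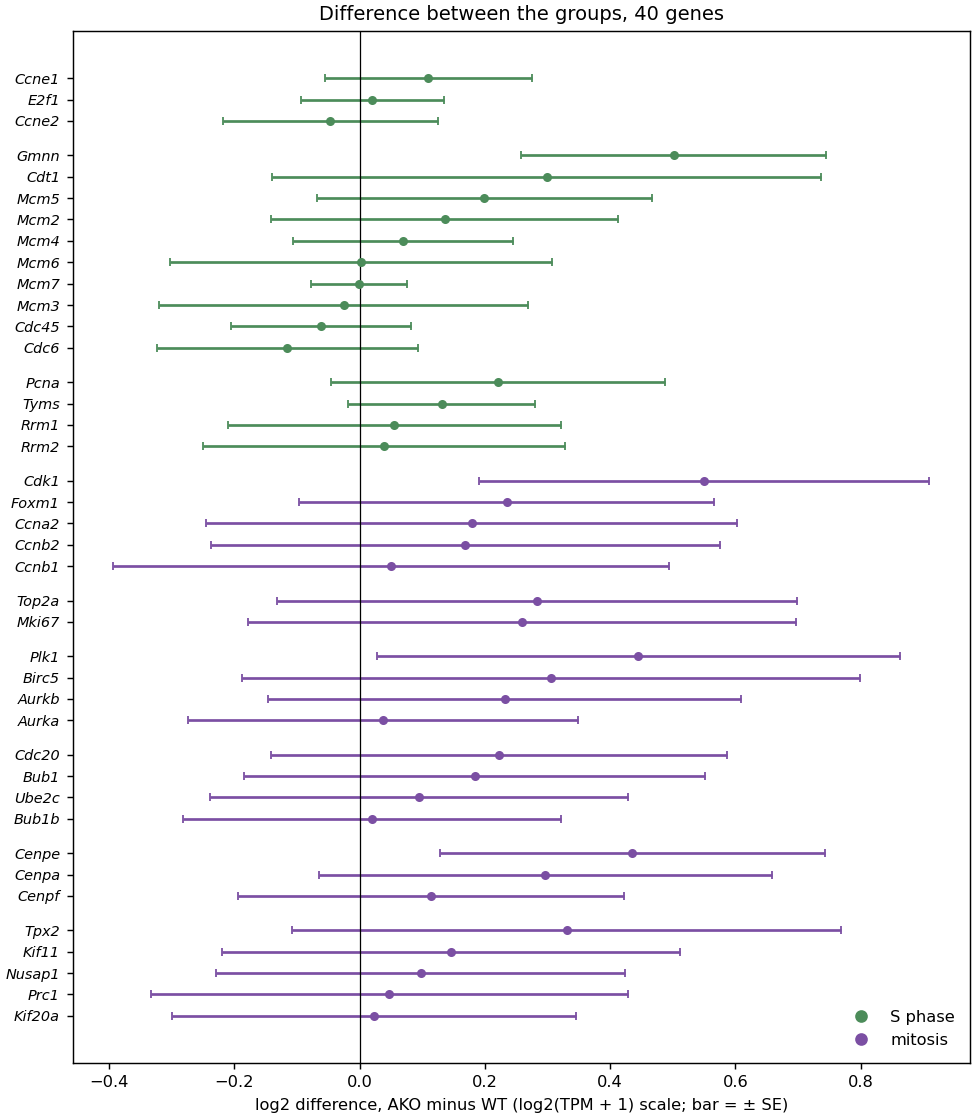
The log2 difference AKO minus WT of each of the 40 genes (x axis, log2(TPM + 1) scale) is drawn with its standard error as a bar, grouped by role, S phase green and mitosis purple. All 23 mitosis genes lie to the right of 0 and 12 of 17 S phase genes do, and most bars cross or come near 0.

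To compare the classes, a score was formed per mouse as the mean log2(TPM + 1) of a class. The mitosis score was 2.29, 3.61, 2.00 and 3.24 in the WT mice and 3.33, 2.66, 3.28 and 2.69 in the AKO mice. The S phase score was 3.31, 4.10, 3.20 and 3.75 in WT and 3.91, 3.47, 3.83 and 3.52 in AKO. Both put the 8 mice in 1 order, from WT 4 through WT 2, AKO 8, AKO 11, WT 5, AKO 9 and AKO 3 to WT 3. Each mouse has 1 library, so no error can be given for neighbours in that order. AKO 8 and AKO 11 lay close together in the mitosis score, as did WT 5, AKO 9 and AKO 3. The group means were 2.78 ± 0.76 and 2.99 ± 0.36 for mitosis and 3.59 ± 0.42 and 3.68 ± 0.22 for S phase (SD, n = 4 each). The spread within WT exceeded both differences. In summed TPM, the mitosis genes went from 86.2 in WT 4 to 320.8 in WT 3 and the S phase genes from 203.6 to 426.8.

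**Figure D3:**
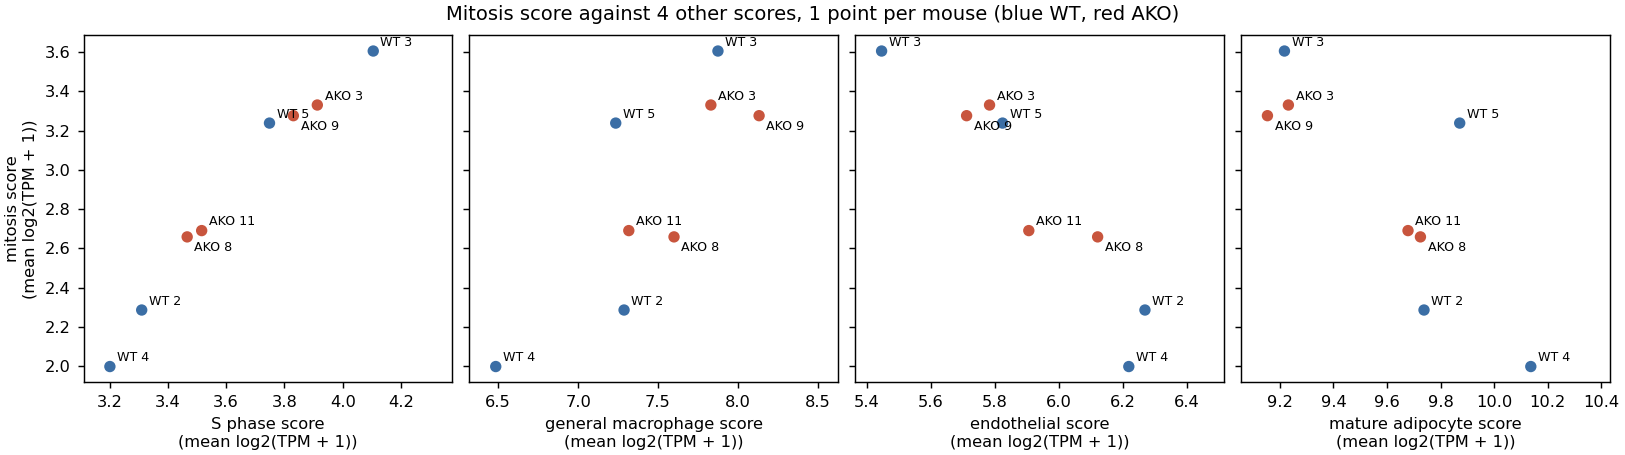
The mitosis score of each mouse (y axis, mean log2(TPM + 1)) is plotted against the scores of the S phase genes, the pan-macrophage, the endothelial and the mature adipocyte markers (x axes, same unit), 1 point per mouse, WT blue and AKO red. The mice line up with the S phase score (r = 0.99), scatter more with the macrophage score (r = 0.80), and run opposite to the endothelial and adipocyte scores.

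The 2 scores correlated across the 8 mice with r = 0.99 (rho 1), with r = 0.99 for deviations from the group means and r = 0.99 without WT 3 and WT 4. These points share library and scaling, and the value is a description. Mki67, Top2a and Pcna, which enter these scores themselves, were also correlated pair by pair, in a family of 3 tests. They come from a list chosen with earlier results of these data known, and they share library and scaling too. No other gene pairs were set beside them, so the p-values below give no separate support. Mki67 and Top2a correlated with r = 0.992 (exact permutation p = 0.000124, the adjusted value being the same) and rho 0.976 (p = 0.000397, adjusted 0.000595), and with r = 0.977 without WT 2 and WT 4. Mki67 and Pcna, from different classes, gave r = 0.956 (exact permutation p = 9.9e-05, adjusted 0.000124), rho 0.976 (p = 0.000397, adjusted 0.000595) and r = 0.936 without the same mice. Top2a and Pcna gave r = 0.957 (exact permutation p = 9.9e-05, adjusted 0.000124), rho 0.952 (p = 0.00114, adjusted 0.00114) and r = 0.926 without them.

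The amplitude differed between the classes. WT 3 held a median of 3.80 times the TPM of WT 4 over the mitosis genes and 2.24 times over the S phase genes. Over all genes the median was 1.04. WT 3 and WT 4 are the ends of the order of these same genes, so a lower value over all genes was partly fixed. The highest over the lowest mouse of each gene, whichever mice these were, had a median of 3.88 for mitosis and 2.30 for S phase. For all genes above 0 in every mouse it was 1.55. The median within-group SD on the log2 scale was 0.60 for mitosis (0.49 to 0.83), 0.40 for S phase (0.08 to 0.73) and 0.19 for all genes. In TPM the mitosis genes were the lower class, with a median mean level of 6.51 against 12.2 TPM, and the log2(TPM + 1) scale understates changes of low genes. The gap between the scores, mitosis minus S phase, was −1.20 in WT 4 and −1.02 in WT 2 and between −0.83 and −0.50 in the other mice. The WT group spread more than AKO for 37 of the 40 genes (92.5% against 68.0% of all genes). The 40 genes vary together between mice, so these 37 are not separate observations. The difference in spread between the groups was not tested.

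**Figure D4:**
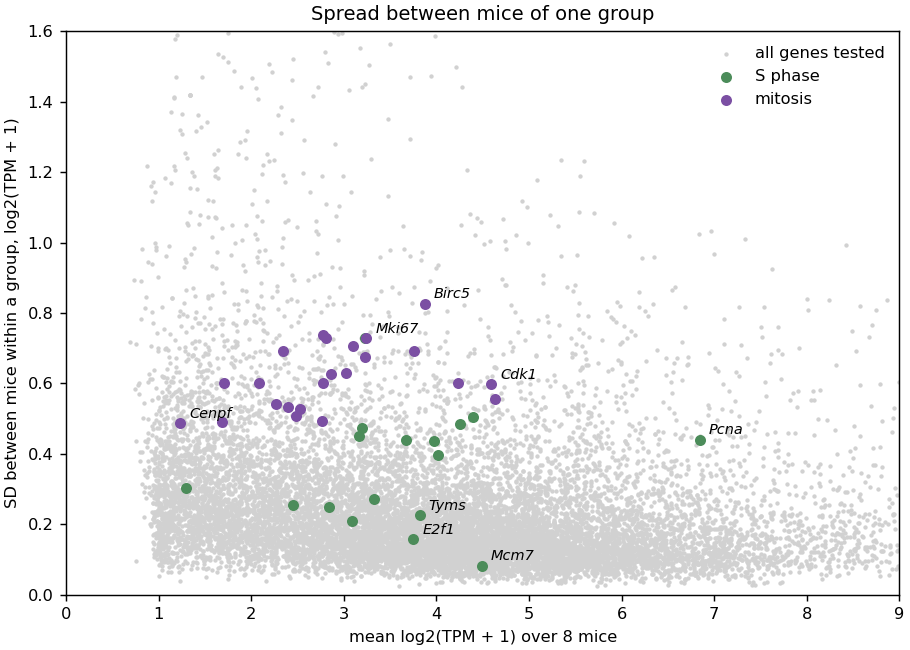
The SD between mice within a group (y axis, log2(TPM + 1)) is plotted against the mean level over 8 mice (x axis, same scale, genes beyond the axes not drawn) for all 14172 genes tested (grey), the S phase genes (green) and the mitosis genes (purple). The mitosis genes lie at 0.49 to 0.83, above the median of 0.19 over all genes, and Mcm7 lies at the bottom at 0.08.

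Pairs of mitosis genes were tightly linked. Deviations from the group means gave a median r of 0.95 over 253 pairs (0.58 to 0.996), and over 136 S phase pairs a median of 0.83 (0.0092 to 0.999). In all 780 pairs r was above 0. Pairs of other genes were not set beside these, so the values do not show that the link is particular to this list. Correlated with the rest of its class, 22 of 23 mitosis genes and 13 of 17 S phase genes were above 0.8. The exceptions were Cenpf (0.74), Mcm7 (0.41), Cdc45 (0.54), Ccne1 (0.76) and Tyms (0.77), chosen after their values were seen.

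Other genes of the same machinery were read from 4 further lists. Of 30 other replication genes, 29 were tested, with 19 log2 differences above 0 (53.8% of all genes were), 10 below and 2 at an unadjusted p below 0.05 (4.75% of all genes). Orc2, a subunit of the origin recognition complex, was at 22.5, 22.00, 22.7 and 22.00 TPM in the WT mice and 19.4, 19.4, 17.4 and 19.2 TPM in the AKO mice, with a log2 difference of −0.23 (SE 0.07, FDR 0.831). Orc6, another subunit, was at 23.2, 24.9, 27.9 and 24.9 TPM in the WT mice and 22.5, 21.6, 21.03 and 20.8 TPM in the AKO mice, with a log2 difference of −0.22 (SE 0.08, FDR 0.831). For both subunits every AKO mouse lay below every WT mouse, but neither passed. Gins4, of the same list and chosen after its values were seen, had every AKO mouse above every WT mouse, at 37.98, 40.1, 39.9 and 39.7 TPM in the WT mice and 41.5, 43.8, 40.6 and 42.5 TPM in the AKO mice, with a log2 difference of 0.09 (SE 0.06, FDR 0.831). Of 30 other kinetochore, spindle and condensin genes, 28 were tested, with 23 above 0 and 5 below. Spc25, a subunit of the NDC80 complex, was at 10.7, 19.8, 8.97 and 12.6 TPM in the WT mice and 16.96, 12.7, 18.7 and 15.4 TPM in the AKO mice. Pttg1, which encodes securin, was at 55.6, 46.5, 59.6 and 50.95 TPM in the WT mice and 42.7, 55.6, 45.7 and 42.6 TPM in the AKO mice and did not follow the order of Mki67.

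Inhibitors of cyclin-dependent kinases split 4 above and 3 below 0. Cdkn2c, which encodes the Cdk4 and Cdk6 inhibitor p18, was at 117, 123, 193 and 180.4 TPM in the WT mice and 97.5, 106, 85.1 and 119 TPM in the AKO mice, with a log2 difference of −0.56 (SE 0.18, FDR 0.831) and an unadjusted p of 0.0143. Cdkn1c was at 23.1, 23.1, 25.6 and 15.8 TPM in the WT mice and 26.1, 40.6, 26.1 and 23.96 TPM in the AKO mice. Of 18 genes of the G1 machinery, 7 were above and 11 below 0. Ccnd2, a D cyclin, was at 99.2, 109, 94.9 and 91.9 TPM in the WT mice and 91.3, 86.2, 85.6 and 89.3 TPM in the AKO mice. Rb1, the retinoblastoma protein gene, was at 31.7, 32.3, 37.2 and 30.1 TPM in the WT mice and 29.3, 28.7, 27.8 and 29.9 TPM in the AKO mice. For Ccnd2 and Rb1 every AKO mouse lay below every WT mouse. Over the 82 tested genes of the 4 lists, AKO lay wholly below WT for 4 (all genes 1.33%) and wholly above for 1 (all genes 1.11%), and 3 were at an unadjusted p below 0.05 (all genes 4.75%). No gene of the 4 lists passed the test (smallest FDR 0.831).

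Markers of the cell types in fat varied between mice beside the proliferation scores. The pan-macrophage score was 7.29, 7.88, 6.48 and 7.24 in WT and 7.83, 7.60, 8.13 and 7.32 in AKO, and correlated with the mitosis score with r = 0.80 (rho 0.76), or 0.64 without WT 4 and AKO 9. The lipid-associated macrophage score gave r = 0.75 (rho 0.76), or 0.46 without the same mice. All 10 pan-macrophage genes had log2 differences above 0 (median 0.50), and 9 of 10 genes of lipid-associated macrophages did (median 1.17), with 3 at an unadjusted p below 0.05. Over all genes 53.8% were above 0 and 4.75% at an unadjusted p below 0.05. Their summed level was 2253 to 5265 TPM in WT and 3638 to 6398 TPM in AKO for the first list and 5428 to 8857 and 7180 to 10165 TPM for the second. All 8 adipocyte genes were below 0 (median −0.26), with 1 at an unadjusted p below 0.05. They were at 9683 to 16029 TPM summed in WT and 9228 to 12982 TPM in AKO. The adipocyte score ran opposite to mitosis (r = −0.80, rho −0.79, and −0.685 without WT 3 and AKO 9). The endothelial score did too (r = −0.94, rho −0.95, and −0.93 without WT 2 and WT 3), at 316.3 to 550.5 TPM summed in WT and 371.2 to 490.1 TPM in AKO. No marker of these 4 lists was listed at 0 in any mouse. These correlations are descriptions over 8 mice. The part of these cell types in the proliferation values was not tested.

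The macrophage order was not the proliferation order. WT 5, second in WT for mitosis, had a lower macrophage score than WT 2, and AKO 8 had a higher one than WT 5. The list of 8 germ cell and epididymis markers summed to 49.5 to 93.1 TPM in WT and 67.3 to 827.8 TPM in AKO. Sycp3, a gene of meiotic chromosomes, was present in every mouse (28.99 to 84.2 TPM) and made up most of that sum in several of them, while Tnp1 and Prm1 together were at 4.33 to 22.3 TPM in WT. Of these, Ccna1, Crisp1, Lcn5 and Defb20 were listed at 0 in at least 1 mouse, Tnp1 at 0 in AKO 3 and AKO 9, and Prm1 at 0 in AKO 9. None of the 40 genes was highest in AKO 11 (5.94% of all genes were), and 18 (45%) were at their lowest AKO level there, near the 37.3% of all genes. Of the 82 tested genes of the related lists 2 were highest in AKO 11, Kif2c and Cenpk, named here after their values were seen. Kif2c, a microtubule depolymerase, was at 1.78, 4.97, 0.960 and 3.52 TPM in the WT mice and 2.94, 1.77, 2.92 and 6.79 TPM in the AKO mice. Cenpk, a kinetochore protein, was at 2.24, 5.48, 3.21 and 4.43 TPM in the WT mice and 3.66, 3.74, 5.57 and 6.50 TPM in the AKO mice. The part of these transcripts in the proliferation values was not tested.

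The remaining marker lists were compared with the mitosis score across all 8 mice and with the 2 mice farthest from the median left out. The progenitor and fibroblast genes (8 of 8 above 0, median log2 difference 0.25, 1 at an unadjusted p below 0.05) gave r = 0.64 and 0.37. The T and NK cell genes (6 of 6 tested above 0) gave r = −0.35 and 0.06. The B and plasma cell genes (4 of 4 tested above 0, median 0.75, 3 at an unadjusted p below 0.05) gave −0.15 and 0.18. Over all genes 53.8% were above 0 and 4.75% at an unadjusted p below 0.05. The mesothelial genes (2 of 5 above 0) gave r = −0.12 and 0.48. The erythroid genes (0 of 3 tested above 0) ran opposite to the mitosis score, with r = −0.78 and −0.68.

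The 40 genes have 223 transcript rows, 1 to 14 each, of which 47 were listed at 0 in all mice and 103 in some. In a fit of single rows added after the data were seen, 62 of these rows were tested, 0 passed (limma, where 0.021% of all 33323 rows did) and 1 had an unadjusted p below 0.05, where 5.56% of all rows did. It was a minor row of Top2a, at 1.69, 0.34, 0.67 and 0.31 TPM in WT and 4.10, 1.23, 1.66 and 2.87 TPM in AKO (log2 difference 0.97, FDR 0.838). The largest row held over 50% of the gene for 34 of the 40 genes. In GENCODE M21, 18 of the 40 genes overlap another gene, 14 of them one on the other strand. Pcna, Tyms, Ccnb1 and Ccnb2 have a pseudogene of their name, at a mean of 0 to 0.72 TPM.

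**Figure D5:**
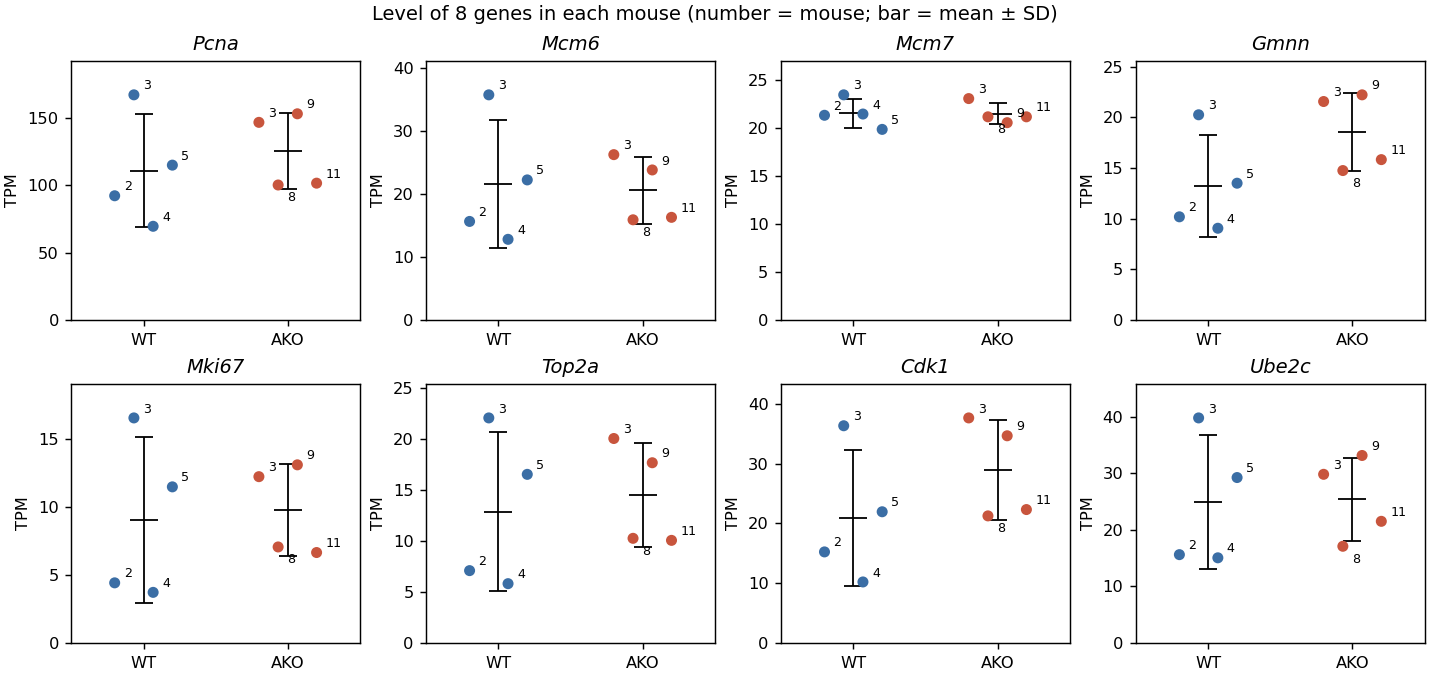
TPM of 8 genes (y axes, from 0) in each mouse, with the mouse number beside each point, WT blue and AKO red, and the mean with its SD as a bar (n = 4 each). In all panels but Mcm7, WT 3 and WT 5 lie above WT 2 and WT 4, and the AKO mice fall within or near the WT range.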

How the data were processed

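The authors deposited 1 table of TPM values per library, with 152298 rows, scaled to a fixed total per library. Per the submitters' processing notes, HISAT2, DESeq2 and mm9 are listed, with no role or version stated. The program behind the TPM and its annotation are not stated in the sources used. Libraries were made from frozen tissue with the Illumina TruSeq kit, per the labels' protocols. TPM keeps no depth, so precision rests on the 4 mice per group.

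Rows were summed per gene identifier (55487 genes, 55141 with a symbol). Among all rows of the tables, 401 had no gene identifier (0.605% to 0.943% of TPM) and were left out. The 14172 genes that reached 1 TPM in 4 or more mice were fitted with limma 3.58.1 (R 4.3.3, mean-variance trend) on log2(TPM + 1), AKO against WT, with Benjamini-Hochberg adjustment over all of them. The scale understates changes of low genes. No 2 libraries were identical. The series' design text describes separate mice, and the limma p-values set the group difference against the spread of these mice within the groups.

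The genes, their classes, the further lists and the pattern counts were chosen with earlier results of these data known. Values per mouse are given for Mki67, Top2a and Pcna, the 2 most abundant genes of each role, the 3 genes with the smallest p in each class, and the 2 genes with the smallest p of each related list. Alternatives were a pseudocount of 0.1, no filter, 1 TPM in all mice, the row with the highest mean, median-ratio scaling, leaving out mitochondrial genes, each mouse left out, and exact permutation. Gene overlaps came from GENCODE M21, used for names and neighbours.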

Additional observations from a re-analysis of the deposited data

Results flagged for a closer look

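4 values lay far from the other 3 mice of their group, out of 108 groups of 4 that were checked, where chance gives about 1 in 20. Cdkn1c, a cyclin-dependent kinase inhibitor gene, was at 5.38 on the log2(TPM + 1) scale in AKO 8 and at 4.64 to 4.76 in the other AKO mice. Orc2 was at 4.20 in AKO 9 and at 4.33 to 4.35 in the other AKO mice. The score of the 7 kinase inhibitor genes was 4.56 in AKO 3 and 4.68 to 4.69 in the others. The T and NK cell score was 2.43 in AKO 8 and 1.55 to 1.68 in the others. No such mouse was found for the proliferation genes given per mouse or for either class score.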

How the results depend on the processing

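None of the 40 genes passed under any alternative (limma FDR or, unadjusted, exact permutation), and the class scores correlated with r between 0.98 and 0.99 throughout. The number of genes called was 4 of 14172, 6 with a pseudocount of 0.1, 3 of 13569 with the row of the highest mean, and 2 of 12767 when 1 TPM was required in all mice. It stayed at 4 with no filter, median-ratio scaling or mitochondrial genes left out. Leaving out single mice gave 1 to 5 calls, with 2 without WT 2, 1 without AKO 3 and 2 without AKO 11. The S phase median lay between −0.04 (without WT 4) and 0.25 (without WT 3) and the mitosis median between −0.07 and 0.48. With the row of the highest mean per gene all 16 S phase genes tested were above 0, and the log2 difference was 0.10 for Mcm7 and −0.16 for Prc1. That setting also moved Cdk1 to 0.83, Cenpe to 0.19, Top2a to 0.13, Tyms to 0.062 and E2f1 to 0.16. The row used for Cdk1 holds 52.1% of the gene. Its next largest row, with 44.6%, had a log2 difference of 0.23 in the fit of single rows. A pseudocount of 0.1 moved Cenpe to 0.68 and Prc1 to 0.072. For Mcm6 it was −0.013 with median-ratio scaling and −0.0066 without mitochondrial genes. Leaving out single mice turned the sign of 11 genes given per mouse, over these ranges: Aurkb −0.0069 to 0.47, Birc5 −0.077 to 0.70, Ccnb2 −0.16 to 0.48, Cdc20 −0.050 to 0.51, E2f1 −0.044 to 0.089, Mcm6 −0.20 to 0.27, Mcm7 −0.037 to 0.039, Mki67 −0.032 to 0.60, Prc1 −0.23 to 0.31, Rrm1 −0.11 to 0.25 and Ube2c −0.10 to 0.35. The other genes given per mouse stayed above 0 over wide ranges: Ccne1 0.030 to 0.24, Cdk1 0.27 to 0.85, Cenpa 0.0092 to 0.54, Cenpe 0.21 to 0.70, Gmnn 0.35 to 0.71, Pcna 0.023 to 0.44, Plk1 0.11 to 0.80, Top2a 0.0026 to 0.59, Tpx2 0.0020 to 0.68 and Tyms 0.0063 to 0.26. The cause was not tested. No paired analysis was possible because the groups share only replicate number 3, on different animals. Unknown depth limits what can be said of genes near 1 TPM, such as Cdc6, Cenpe and Cenpf.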

Other observations

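Outside the lists, the genes whose deviations from the group means followed the mitosis score most closely over the 8 mice were Tacc3 (r = 0.996), Tubb5 (0.995), Prr11 (0.994), Iqgap3 (0.994), Knstrn (0.994), Praf2 (0.990), Rab1a (0.989), Plaa (0.989), Stmn1 (0.987) and Ccdc97 (0.987). Tacc3, Tubb5, Knstrn and Stmn1 are known from spindles and microtubules. Tubb5, a beta tubulin, was at 144.5, 294.9, 125.4 and 235.3 TPM in WT and 248.6, 170.2, 261.3 and 185.4 TPM in AKO, and Knstrn, a kinetochore adaptor, at 4.41, 18.8, 2.39 and 13.7 and at 12.8, 6.73, 12.2 and 6.62 TPM. Rab1a, a GTPase of the secretory pathway, varied far less, at 123.7 to 167.2 TPM. Of the 50 genes most like the score, 13 were among the 40, 6 in the related lists, 0 in a cell type marker list and 31 in no list. Of those 13, 11 are mitosis genes that enter the score themselves, so their place there is partly fixed by its construction. These values rank 14172 genes over 8 mice that share library and scaling, and are a description.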
